A study of Mus musculus with 9 samples.

Results

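Intermediate filament genes were compared among adult mouse cardiac fibroblasts, cells labelled as such fibroblasts dedifferentiated with protein, and embryonic stem (ES) cells. The 10 genes were those of vimentin (Vim), desmin (Des), peripherin (Prph), nestin (Nes), alpha-internexin (Ina), the light neurofilament subunit (Nefl), synemin (Synm) and the nuclear lamins (Lmna, Lmnb1 and Lmnb2). Each was read from the array row that the platform annotation gives to that symbol alone, and the 10 genes are part of 19938 genes with such a row. Rows were selected on a measured value, the mean over the 9 arrays, for Ina alone, whose 2 rows had means of 6.61 and 5.85, and the higher was taken.

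All samples carry the strain label C57BL/6, and each of the 3 groups had 3 samples, each hybridised to 1 Affymetrix Mouse Gene ST array. The fibroblasts are labelled as adult and cardiac, although 1 of their labels also mentions ES cells. The ES cells are labelled C57 ES cell. The labels name neither the protein used for dedifferentiation nor its duration, and they do not say whether replicates came from separate animals or cultures, so the spread behind each p-value is that among the samples and could be technical.

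The labelled cell types were checked against marker genes. All 9 fibroblast markers were lower in dedifferentiated and in ES cells than in fibroblasts, and all 8 ES cell markers were higher. Of 9 cardiomyocyte markers 0 were called in any comparison by the limma fit, with Myh6 at group means of 4.13 (fibroblasts), 4.01 (dedifferentiated) and 4.05 (ES). Of all genes, 18.9% were called between dedifferentiated cells and fibroblasts, 19.2% between ES cells and fibroblasts and 1.55% between dedifferentiated and ES cells. Xist, the RNA that coats a silenced X, read 7.31 in fibroblasts against 3.25 and 3.15 in dedifferentiated and ES cells, and the Y-linked Eif2s3y was at 3.55, 8.09 and 7.76, so the comparisons with fibroblasts are also comparisons of cells that differ in sex-linked transcripts. Any part of this difference in the results for filament genes cannot be told apart from the cell type. For both genes the dedifferentiated arrays overlapped the ES arrays and not the fibroblast arrays. Xist read 3.07 to 3.49 against 7.24 to 7.39 in fibroblasts, and Eif2s3y read 7.95 to 8.18 against 3.45 to 3.69. Descent of the dedifferentiated cells from the fibroblasts on these arrays therefore cannot be taken as given, and it was not tested. Words such as rose and fell below describe differences between groups, not changes followed in the same cells.

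Intermediate filaments are rope-like polymers of proteins that share a central coiled rod. Type III proteins such as vimentin, desmin and peripherin assemble on their own in mesenchymal cells, muscle and peripheral neurons respectively, whereas the type IV proteins nestin, alpha-internexin, the neurofilament subunits and synemin are mostly found in neural precursors, neurons and muscle and often join filaments built by another member. Type V proteins, the lamins, line the inner nuclear membrane, where B-type lamins are made by nearly all cells and A-type lamins rise as cells differentiate. Early embryonic cells build their cytoplasmic network mainly from the simple keratins.

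The values are log2 expression values, so a difference of 1 unit is a 2-fold difference. A gene is described as higher, lower, risen or fallen where its Benjamini-Hochberg adjusted p over all genes was under 0.05 in the limma fit and its difference was at least 1 log2 unit. Levels of different genes cannot be set against each other on these arrays, because each probe set has its own brightness. In bulk samples, fewer cells of a type and less RNA per cell cannot be told apart.

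Between dedifferentiated cells and fibroblasts, 6 of the 10 genes were higher (Nes, Des, Lmnb1, Prph, Ina and Nefl) and 2 were lower (Vim and Lmna). Of all genes, 18.9% were called in this comparison, 8.79% higher and 10.1% lower. Between ES cells and fibroblasts, 5 were higher (Des, Lmnb1, Prph, Ina and Nefl) and the same 2 were lower, against 8.85% and 10.4% of all genes, or 19.2% in either direction. Dedifferentiated cells exceeded ES cells for 3 genes (Vim, Nes and Ina), against 1.01% of all genes, and 0 of the 10 were lower, against 0.547% (1.55% in either direction). By limma, Des alone was lower there at an adjusted p under 0.05 (0.0013), short of the required size, with an unadjusted p of 8.7e-05. The arrays of both groups did not overlap for 9, 10 and 8 of the 10 genes in the 3 comparisons, against 54.7%, 51.9% and 32.6% of all genes. The median difference of the 10 genes was 1.14, 0.99 and 0.11 log2 units in these comparisons, and that of all genes was 0.01, 0.02 and 0.00. The first and second comparisons share the fibroblast arrays, and the genes were chosen with earlier results in view, so these counts are descriptions.

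**Figure D1:**
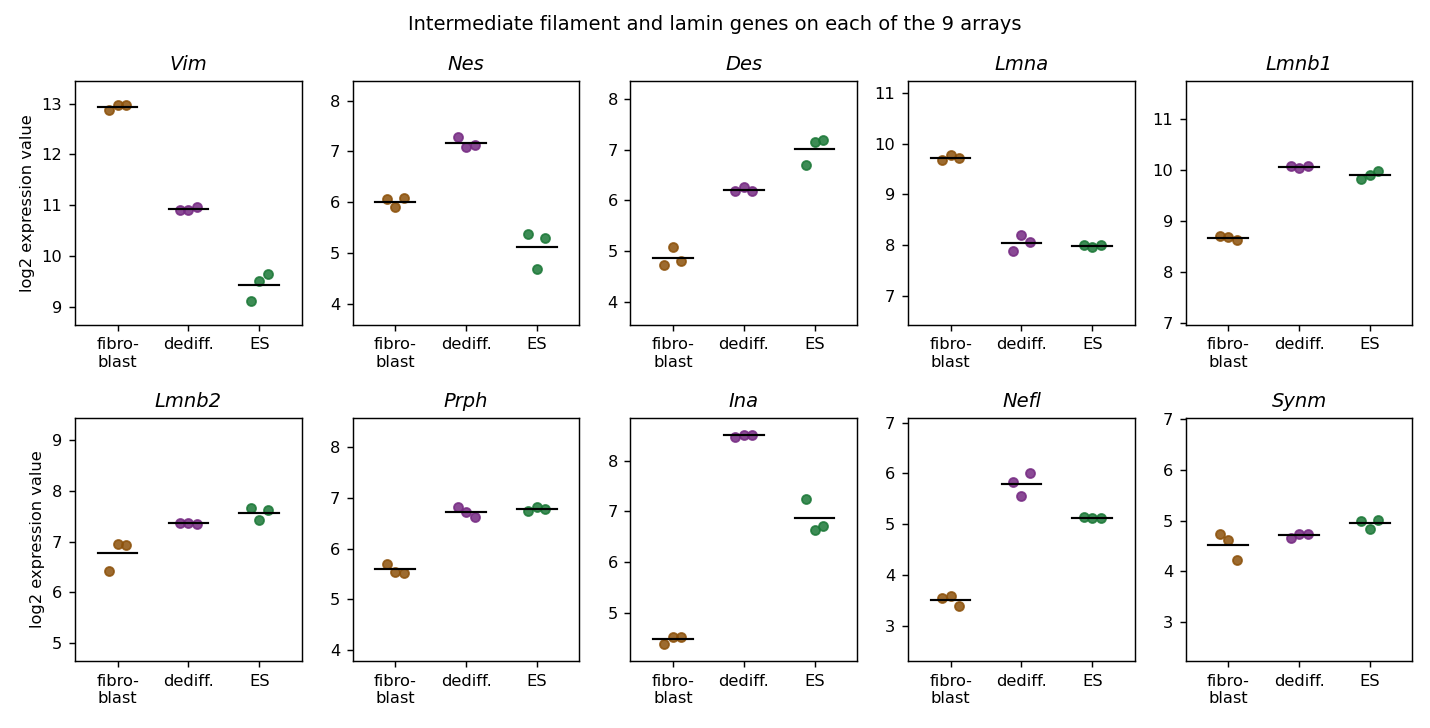
Log2 expression value (vertical axis) of each of the 10 genes on every array, by group, with each point 1 array and the bar the group mean of 3 arrays; each panel has its own position on the axis but the same span. Vim and Lmna were high in fibroblasts, Nes, Ina and Nefl were highest in dedifferentiated cells, and Des was highest in ES cells.

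Vim was the most fibroblast-weighted of the cytoplasmic filament genes and was at an intermediate level in the dedifferentiated cells. Vimentin forms the main cytoplasmic filament network of fibroblasts. The fibroblast arrays read 12.87, 12.97 and 12.97, the dedifferentiated arrays 10.91, 10.91 and 10.95, and the ES arrays 9.11, 9.51 and 9.64. All 3 groups were separate, with no overlap between any of them. Vim was 4.04-fold lower in dedifferentiated cells than in fibroblasts (log2 difference -2.01, 95% interval -2.27 to -1.75, adjusted p = 4.3e-08) and 11.5-fold lower in ES cells (-3.52, -3.78 to -3.26, adjusted p = 3.6e-10). The dedifferentiated cells exceeded the ES cells by 1.51 log2 units (1.25 to 1.77, adjusted p = 1.3e-05), a 2.84-fold difference. The summed unlogged value of the 9 fibroblast markers was 24400 to 27000 in fibroblasts, 952 to 1020 in dedifferentiated cells and 547 to 602 in ES cells. In dedifferentiated cells 2 of them exceeded their ES level (Pdgfra by 1.37 and Dcn by 1.196), against 1.01% of all genes. The summed unlogged value of 6 macrophage markers, from cells that also make vimentin, was 661 to 805, 330 to 346 and 457 to 558. In each comparison with fibroblasts 1 was higher and 2 were lower. Of all genes, 8.79% were higher and 10.1% lower in dedifferentiated cells, and 8.85% and 10.4% in ES cells. The 2 lower markers were Lyz2, at group means of 8.85 (fibroblasts), 3.20 (dedifferentiated) and 3.34 (ES), and Itgam, at 5.36, 3.59 and 3.59. The higher marker, Cd68, was at 1.05 in dedifferentiated cells and lost its call there without fibroblast replicate 2 (0.999), with another quantile normalization (0.998) and with arrays centred on their medians (0.93). A further one, Adgre1, was at -0.90 and -0.93 and was lower with arrays centred on their medians (-1.02 and -1.05), and in ES cells also with another quantile normalization (-1.02) or without fibroblast replicate 3 (-1.01). The part of such cells in the Vim values was not tested.

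Des moved the other way. Desmin is the type III protein of muscle filaments and can share a filament with vimentin. Its fibroblast arrays read 4.72, 5.09 and 4.81, its dedifferentiated arrays 6.18, 6.26 and 6.18, and its ES arrays 6.70, 7.14 and 7.18. The groups again did not overlap, and their order was the reverse of that of Vim. Des was 2.52-fold higher in dedifferentiated cells than in fibroblasts (log2 difference 1.33, 95% interval 1.04 to 1.62, adjusted p = 4.4e-06) and 4.40-fold higher in ES cells (2.14, 1.84 to 2.43, adjusted p = 7.1e-08). The dedifferentiated cells lay 0.80 log2 units below the ES cells (-1.096 to -0.51, adjusted p = 0.0013), which is short of the size required for a call.

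Muscle markers were read beside Des. Of 6 smooth muscle markers 4 were lower in both comparisons with fibroblasts, against 10.1% and 10.4% of all genes. The summed unlogged value of the 6 was 14600 to 16500 in fibroblasts, 1370 to 1590 in dedifferentiated cells and 962 to 1100 in ES cells. Between dedifferentiated and ES cells 2 of the 6 were higher in the former (Cnn1 by 1.53 and Myl9 by 1.46), against 1.01% of all genes. Of 7 skeletal muscle markers 1 was called, against 18.9%, 19.2% and 1.55% of all genes in the 3 comparisons. The called marker was Acta1, which encodes skeletal actin. It was higher in ES cells than in fibroblasts by 1.65 and lower in dedifferentiated than in ES cells by 1.15 log2 units, the latter falling below the required size without ES replicate 3 (-0.996). The summed value of that list was 169 to 229 in fibroblasts, 214 to 242 in dedifferentiated cells and 333 to 403 in ES cells, and the myogenic regulators Myod1 and Myog had group means of 4.53 to 4.59 and 4.11 to 4.23. The part of muscle cells in the Des values was not tested.

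The 250 bases before the start sites of Vim and Des are shown because these genes of 1 filament class went opposite ways. Both come from RefSeq (build GRCm38.p6, plus strand), at chr2:13574061-13574310 for Vim and chr1:75360042-75360291 for Des. Capitals mark matches on either strand to 4 motifs. The TATA box was searched as the letters TATAAA. The CCAAT box was searched by the letters of its name. The GC box was searched as GGGCGG. The AP-1 site was searched as TGANTCA. Overlapping matches were each counted.
Vim: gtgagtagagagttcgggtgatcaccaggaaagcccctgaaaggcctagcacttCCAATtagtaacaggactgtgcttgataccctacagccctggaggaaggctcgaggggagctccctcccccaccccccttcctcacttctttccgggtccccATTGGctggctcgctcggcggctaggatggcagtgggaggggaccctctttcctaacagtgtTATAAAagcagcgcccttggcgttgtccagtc
Des: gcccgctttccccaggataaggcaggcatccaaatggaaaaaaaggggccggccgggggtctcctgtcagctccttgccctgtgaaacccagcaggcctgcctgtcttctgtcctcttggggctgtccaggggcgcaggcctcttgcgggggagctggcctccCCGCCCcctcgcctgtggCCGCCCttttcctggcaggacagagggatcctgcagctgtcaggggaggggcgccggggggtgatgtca
The Vim window held 1 TATA box and 2 CCAAT boxes, and the Des window held 2 GC boxes and none of the other motifs. Of 32851 RefSeq windows of the same length, 12.4% held the TATA box, 33.8% the CCAAT box, 32.7% the GC box and 6.75% the AP-1 site. These matches describe letters only.

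Prph was higher in both other groups than in fibroblasts, by nearly the same amount. Peripherin is the type III protein of peripheral neurons. Its fibroblast arrays read 5.70, 5.55 and 5.53, its dedifferentiated arrays 6.83, 6.72 and 6.62, and its ES arrays 6.75, 6.81 and 6.78. The fibroblast arrays lay below all others, and the dedifferentiated and ES arrays overlapped. The rise was 1.13 log2 units (95% interval 0.95 to 1.31, adjusted p = 2.6e-07) in dedifferentiated cells and 1.18 (1.01 to 1.36, adjusted p = 1.7e-07) in ES cells. The difference between the latter was -0.05, with an interval of -0.23 to 0.13.

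Nes was the gene that set the dedifferentiated cells furthest from the ES cells. Nestin is a type IV protein of neural and muscle precursors that relies on vimentin or a related partner to form filaments. The fibroblast arrays read 6.06, 5.91 and 6.08, the dedifferentiated arrays 7.29, 7.10 and 7.13, and the ES arrays 5.37, 4.69 and 5.29. The order was dedifferentiated cells, fibroblasts and ES cells, without overlap. Nes was 2.23-fold higher in dedifferentiated cells than in fibroblasts (log2 difference 1.16, 95% interval 0.82 to 1.497, adjusted p = 5.0e-05) and 4.15-fold higher than in ES cells (2.05, 1.72 to 2.39, adjusted p = 1.0e-05). ES cells differed from fibroblasts by -0.90 (-1.24 to -0.56, adjusted p = 0.00038), just under the required size. That value passed it without ES replicate 1 (-1.02), with array weights (-1.21) or with arrays centred on their medians (-1.02).

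Ina had the largest rise among the 10 genes. Alpha-internexin is a type IV filament protein of developing neurons. The fibroblast arrays read 4.38, 4.53 and 4.52, the dedifferentiated arrays 8.47, 8.51 and 8.51, and the ES arrays 7.24, 6.63 and 6.72. The groups did not overlap, with the dedifferentiated cells at the top. Ina was 16.2-fold higher in dedifferentiated cells than in fibroblasts (log2 difference 4.02, 95% interval 3.72 to 4.32, adjusted p = 4.3e-10), 5.24-fold higher in ES cells than in fibroblasts (2.39, 2.09 to 2.69, adjusted p = 3.3e-08) and 3.09-fold higher in dedifferentiated than in ES cells (1.63, 1.33 to 1.93, adjusted p = 2.0e-05). The second row of Ina gave 3.88, 2.19 and 1.69 for the same differences.

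Nefl had the same order of groups as Ina. It encodes the light subunit on which neurofilaments of axons are built. Its fibroblast arrays read 3.55, 3.58 and 3.38, its dedifferentiated arrays 5.82, 5.56 and 6.01, and its ES arrays 5.14, 5.12 and 5.12. The 3 groups were separate. Nefl rose by 2.29 log2 units in dedifferentiated cells (95% interval 2.05 to 2.53, adjusted p = 8.3e-09) and by 1.62 in ES cells (1.38 to 1.87, adjusted p = 1.5e-07). Dedifferentiated and ES cells differed by 0.67 (0.43 to 0.91, adjusted p = 0.0013), short of the required size.

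Synm was called in no comparison by limma, and its unadjusted p was 0.0048 between ES cells and fibroblasts, 0.16 between dedifferentiated cells and fibroblasts and 0.071 between dedifferentiated and ES cells. Synemin is a large type IV protein that ties desmin and vimentin filaments to the membrane of muscle cells. Its arrays read 4.73, 4.61 and 4.23 in fibroblasts, 4.65, 4.74 and 4.74 in dedifferentiated cells, and 4.99, 4.83 and 5.02 in ES cells. The dedifferentiated and fibroblast arrays overlapped, and the ES arrays lay above both. The ES minus fibroblast difference was 0.42 (95% interval 0.16 to 0.68, adjusted p = 0.011), and the dedifferentiated minus fibroblast difference was 0.18 (-0.08 to 0.44).

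Equal readings on different arrays are part of these small spreads. Among arrays of 1 group, 3.41% to 7.63% of all genes had exactly the same value on a pair of arrays, and among arrays of different groups 2.59% to 5.56%. For the 10 genes this occurred 4 times, once each for Vim, Des and Synm in dedifferentiated cells and for Nefl in ES cells. An SD near 0 is therefore no measure of precision.

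Neural and endothelial markers were read beside the type IV genes. Of 11 measured neuron and neural progenitor markers, 2 rose and 1 fell in the dedifferentiated group relative to fibroblasts, against 8.79% and 10.1% of all genes. The summed unlogged value of these markers was 776 to 852 in fibroblasts, 1190 to 1240 in dedifferentiated cells and 1430 to 1630 in ES cells. The stathmin gene Stmn2 rose by 5.82 and the transcription factor gene Neurod1 by 1.18, whereas the neuronal tubulin gene Tubb3 fell by 1.27. Stmn2 had group means of 3.63 (fibroblasts), 9.46 (dedifferentiated) and 10.1 (ES), and Tubb3 had 9.11, 7.83 and 6.65. The median difference of the list from fibroblasts was 0.07 in dedifferentiated and 0.11 in ES cells. The higher sums therefore came largely from Stmn2, the highest value of the list in dedifferentiated and ES cells, and not from the markers as a set. In ES cells 3 markers were higher than in fibroblasts and 1 lower, against 8.85% and 10.4% of all genes. The higher markers included Elavl3, a neuronal RNA-binding protein gene, at 1.14 in ES cells (0.994 without ES replicate 1 and 0.89 with array weights). In dedifferentiated cells Elavl3 was at 0.84 (adjusted p = 0.00067), short of the required size. Map2 went the other way, at -0.74 in dedifferentiated and -0.83 in ES cells (adjusted p = 1.45e-05 and 5.43e-06), also short of that size. Neurod1 was at 1.098 in ES cells and fell just short with another quantile normalization (0.9997) and with arrays centred on their medians (0.98). Tubb3 was the only marker called between dedifferentiated and ES cells, higher by 1.18 in the former (adjusted p = 2.5e-05), against 1.55% of all genes. Dcx, Elavl4 and Rbfox3, named after their values were seen, lay at group means of 3.39 to 3.42, 3.31 to 3.41 and 4.34 to 4.42 in the 3 groups. Of 4 measured Schwann cell and neural crest markers 0 were called by limma in any comparison, against 18.9%, 19.2% and 1.55% of all genes. Ngfr and Foxd3 were 0.97 and 0.99 above fibroblasts in dedifferentiated cells, at adjusted p = 3.5e-05 and 1.7e-05 and short of the required size. Both were also above fibroblasts in ES cells, by 0.53 and 0.77 (adjusted p = 0.0036 and 0.00014). The count of 0 rested on single arrays. Foxd3 was called without fibroblast replicate 2 (1.12), without dedifferentiated replicate 1 or 2 (both 1.01) and with array weights (1.05). Ngfr was called without dedifferentiated replicate 1 (1.11) or fibroblast replicate 3 (1.001).

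Of 5 endothelial markers, 3 rose in the dedifferentiated group relative to fibroblasts, against 8.79% of all genes (Pecam1 by 2.44, Cdh5 by 1.16 and Tek by 1.06). Tek was at 0.95 without fibroblast replicate 1 and 0.94 with arrays centred on their medians. In ES cells 1 of the 5 rose, against 8.85% of all genes. That marker was Pecam1, by 2.48, and it differed by -0.05 between dedifferentiated and ES cells. Cdh5 was also higher in dedifferentiated than in ES cells, by 1.38, and Tek differed there by 0.94, or 1.05 without ES replicate 3. The summed value of that list was 156 to 191 in fibroblasts, 397 to 418 in dedifferentiated cells and 254 to 300 in ES cells. Tie1 lay at 4.34, 4.27 and 4.31 in the 3 groups. The part of neural or endothelial cells in the type IV values was not tested.

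**Figure D2:**
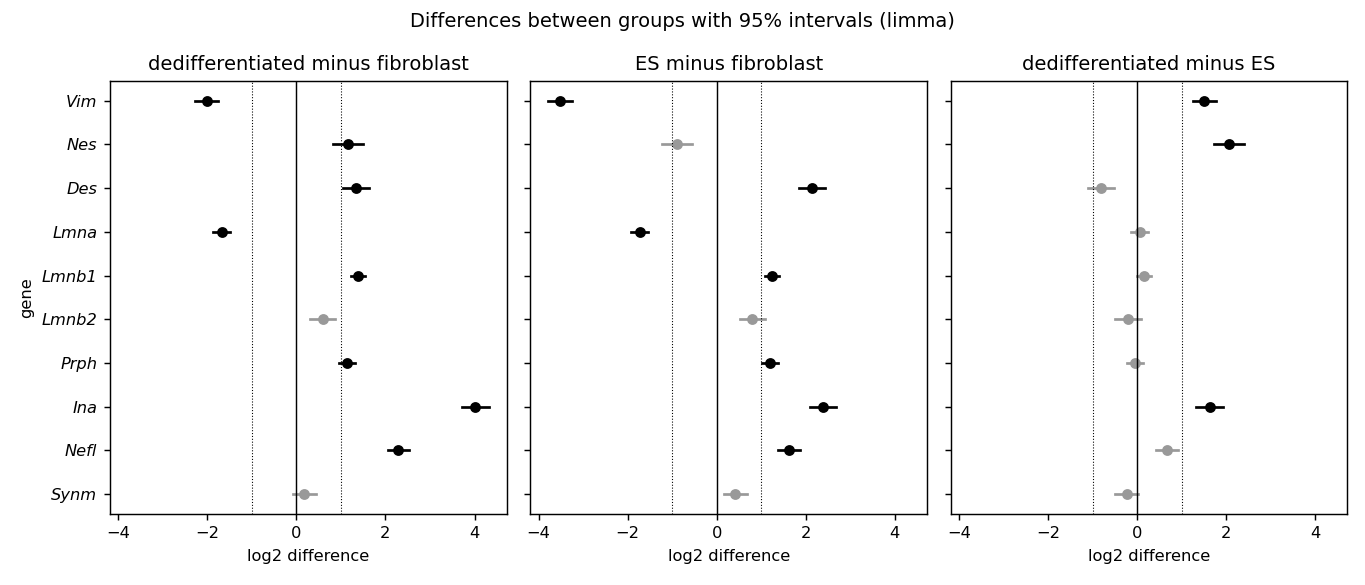
Difference between group means in log2 units (horizontal axis) for each gene (vertical axis), with 95% intervals from the limma fit over 9 arrays; black points were called and grey points were not, and dotted lines mark 1 log2 unit. Ina lies furthest to the right among differences from fibroblasts at 4.02, Vim furthest to the left at -3.52, and Nes furthest to the right between dedifferentiated and ES cells at 2.05.

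The windows before the start sites of Nes and Ina are shown because both genes were highest in the dedifferentiated cells. They are from the same RefSeq table and on the plus strand, at chr3:87970843-87971092 for Nes and chr19:47014431-47014680 for Ina, with capitals as above.
Nes: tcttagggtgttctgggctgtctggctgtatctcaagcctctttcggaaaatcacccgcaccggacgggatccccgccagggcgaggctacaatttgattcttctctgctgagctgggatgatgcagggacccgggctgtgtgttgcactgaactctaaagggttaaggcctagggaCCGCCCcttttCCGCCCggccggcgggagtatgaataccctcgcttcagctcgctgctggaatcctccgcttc
Ina: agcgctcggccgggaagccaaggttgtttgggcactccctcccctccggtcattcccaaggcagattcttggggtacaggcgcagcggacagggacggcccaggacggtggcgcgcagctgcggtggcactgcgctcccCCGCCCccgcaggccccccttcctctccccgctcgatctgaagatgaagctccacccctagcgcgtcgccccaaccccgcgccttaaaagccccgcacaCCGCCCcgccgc
Each held 2 GC boxes and no match to the other 3 motifs, as did the Des window. The Ina window held 25 CG dinucleotides with 70.8% G and C, the Nes window 15 with 58.8%, and the Vim window 8 with 58.4%. Windows were found for 8 of the 10 genes, with 2 windows each for Lmna and Lmnb2 and none used here for Lmnb1 and Nefl. No window of the 8 genes matched the AP-1 letters.

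The lamin genes split by type. Lmna, which encodes the A-type lamins A and C, was high in fibroblasts and at close levels in the other groups. Its fibroblast arrays read 9.67, 9.79 and 9.72, its dedifferentiated arrays 7.88, 8.20 and 8.06, and its ES arrays 8.01, 7.97 and 8.005. The fibroblast arrays stood above all others and the remaining groups overlapped. Lmna fell by 1.68 log2 units in dedifferentiated cells (3.20-fold, 95% interval -1.87 to -1.49, adjusted p = 1.6e-08) and by 1.73 in ES cells (3.32-fold, -1.92 to -1.54, adjusted p = 1.2e-08). Dedifferentiated and ES cells differed by 0.05, with an interval of -0.14 to 0.24.

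Lmnb1, the gene of lamin B1, rose by 1.39 log2 units in dedifferentiated cells (95% interval 1.24 to 1.55, adjusted p = 1.3e-08) and by 1.23 in ES cells (1.07 to 1.39, adjusted p = 3.7e-08). Its arrays read 8.71, 8.68 and 8.63 in fibroblasts, 10.08, 10.04 and 10.08 in dedifferentiated cells, and 9.84, 9.90 and 9.98 in ES cells. The dedifferentiated arrays lay just above the ES arrays, but the difference of 0.16 (0.01 to 0.32) had an adjusted p of 0.15. Lmnb2, the gene of lamin B2, had fibroblast arrays at 6.42, 6.95 and 6.94, dedifferentiated arrays at 7.38, 7.36 and 7.34, and ES arrays at 7.66, 7.43 and 7.63. The groups did not overlap, and its differences from fibroblasts of 0.59 (adjusted p = 0.0026) and 0.80 (adjusted p = 0.00027) were short of the required size.

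The A-type and B-type genes were also set against each other within each array, as Lmna minus the mean of Lmnb1 and Lmnb2. Only changes of this value between groups carry meaning, since its level depends on the probes. The fibroblast arrays averaged 2.00 ± 0.088, the dedifferentiated arrays -0.67 ± 0.17 and the ES arrays -0.74 ± 0.053 on the log2 scale (SD, n = 3 in each group). The value therefore differed from fibroblasts by -2.67 in dedifferentiated cells and by -2.75 in ES cells, and the latter groups differed by 0.08, less than the SD among dedifferentiated arrays. Nes minus Vim averaged -6.92 ± 0.13 for fibroblasts, -3.75 ± 0.11 for dedifferentiated cells and -4.30 ± 0.54 for ES cells (SD, n = 3). Its difference of 0.55 between dedifferentiated and ES cells was close to the SD among ES arrays. No test was made of these sums of chosen genes.

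**Figure D3:**
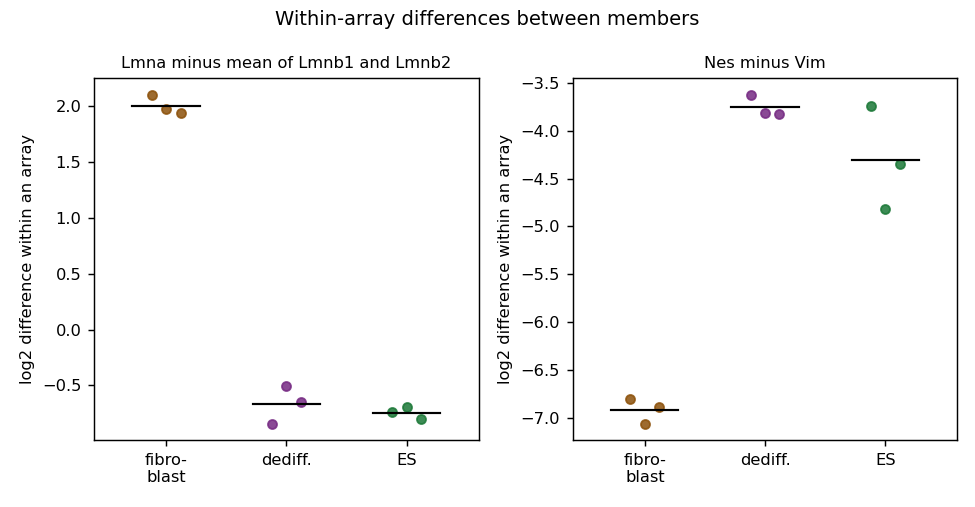
Within-array log2 difference (vertical axis) between Lmna and the mean of Lmnb1 and Lmnb2 (left) and between Nes and Vim (right), with each point 1 array and the bar the mean of 3 arrays. For the lamins, the fibroblast arrays lie at 1.94 to 2.10 and the other 6 arrays between -0.85 and -0.50.

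The partners of the lamins were read in 23 listed genes of the lamina, of the LINC complex that links it to the cytoskeleton, and of lamin processing. In dedifferentiated cells 2 were higher and 5 lower than in fibroblasts, against 8.79% and 10.1% of all genes, with a median of -0.04 log2 units. In ES cells 1 was higher and 3 lower, against 8.85% and 10.4% of all genes, with a median of 0.10, so the ES count was near the background. Lbr, the lamin B receptor that tethers heterochromatin in immature cells, rose by 1.82 in dedifferentiated cells (95% interval 1.62 to 2.03, adjusted p = 1.5e-08) and by 1.90 in ES cells (1.69 to 2.11, adjusted p = 1.0e-08), and Nup153, a nuclear pore protein that contacts the lamina, rose by 1.14 in dedifferentiated cells. Tmem43, an inner nuclear membrane protein that binds lamins and emerin, was lower (-1.91 and -1.47), as was Tor1aip1, a lamin-binding membrane protein (-1.87 and -2.66), in dedifferentiated and ES cells. Between dedifferentiated and ES cells 0 of 23 were called by limma, against 1.55% of all genes, and Fnta, a farnesyltransferase subunit, had the smallest p (difference 0.61, adjusted p = 0.00070).

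Zmpste24, the protease that matures prelamin A, was lower in dedifferentiated and ES cells in its brighter row (-1.23 and -1.83), but its other row, at a mean of 4.13, differed by 0.10 and 0.23. In dedifferentiated cells the nesprin gene Syne2 differed from fibroblasts by -1.12, and by -0.54 to -1.33 over its 4 rows, and the LINC gene Sun2 by -1.05, or -0.97 without fibroblast replicate 3. With the mean of a gene's rows, Zmpste24 (-0.57) and Syne2 (-0.97) were below the required size, which left 3 of 23 lower in dedifferentiated cells. Zmpste24 also lost its call in ES cells with that setting (-0.80). Sun1 differed by 0.99 between ES cells and fibroblasts and passed the required size without fibroblast replicate 1 (1.02), without ES replicate 1 (1.12) or with array weights (1.03), which made 2 of 23 higher. Banf1, whose protein links chromatin to the lamina, differed by 0.98 in dedifferentiated cells and by 1.003 without fibroblast replicate 1, which made 3 of 23 higher there. Emd, the gene of emerin, differed by -0.12 and 0.37.

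**Figure D4:**
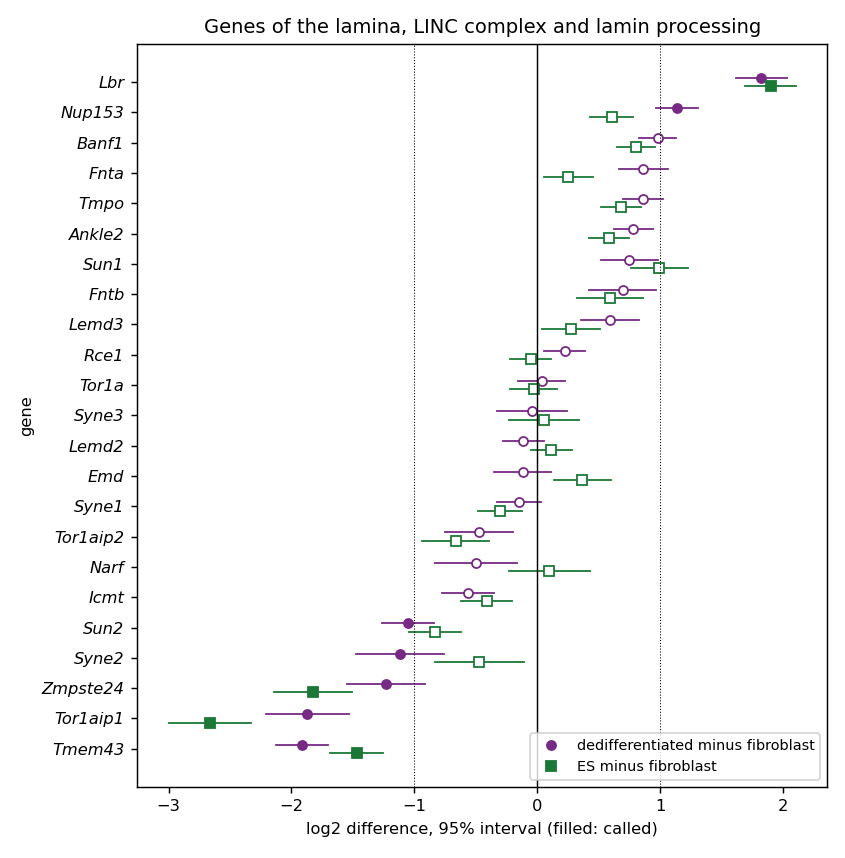
Log2 difference from fibroblasts (horizontal axis, 95% intervals) of 23 genes of the lamina, LINC complex and lamin processing (vertical axis, ordered by the dedifferentiated difference); circles are dedifferentiated cells, squares are ES cells, and filled symbols were called. Lbr lies at 1.82 and 1.90 on the right, and Tor1aip1 at -1.87 and -2.66 on the left.

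Other intermediate filament genes rose or were not called. Of 13 listed, 4 were higher in dedifferentiated and in ES cells than in fibroblasts (8.79% and 8.85% of all genes) and 0 lower, and all 4 were simple keratin genes. Krt18 was 50.3-fold and 76.2-fold higher and Krt8 was 36.6-fold and 42.8-fold higher in dedifferentiated and ES cells. Krt19 rose by 2.84 and 2.80 and Krt7 by 2.63 and 3.55 log2 units. Between dedifferentiated and ES cells 0 of 13 were called by limma, against 1.55% of all genes, and Krt7 had the smallest p (-0.92, adjusted p = 0.0013). The middle and heavy neurofilament genes Nefm and Nefh, whose proteins join Nefl in axons, differed from fibroblasts by 0.51 and 0.91 in dedifferentiated cells and by 0.15 and 0.37 in ES cells, with Nefh at 1.02 in dedifferentiated cells without fibroblast replicate 2. Gfap, the type III gene of astrocytes, differed by 0.13 and 0.00.

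Of 24 measured genes for linkers, chaperones and turnover of filaments, 3 were higher and 5 lower in dedifferentiated cells than in fibroblasts, against 8.79% and 10.1% of all genes. In ES cells 5 were higher and 4 lower, against 8.85% and 10.4%, and Eppk1 (0.98) made 6 without ES replicate 2 (1.07). The rises were led by desmosome genes, which anchor keratin filaments: Pkp2 (3.93 and 4.13), Dsp (2.98 and 3.66) and Jup (1.95 and 1.72). The falls included Cryab (-2.09 and -1.75), a small heat shock protein that binds desmin and vimentin, its co-chaperone gene Bag3 (-1.76 and -1.94), and Flna (-1.56 and -1.41), an actin cross-linker that also binds vimentin. Hspb8, a partner of Bag3, was the only gene of this list called between dedifferentiated and ES cells, against 1.55% of all genes. It was at -1.17 (95% interval -1.37 to -0.96, adjusted p = 1.5e-05). Plec, the gene of plectin, which links vimentin and desmin to other structures, differed by -0.93 and -0.88, and by -1.03 in dedifferentiated cells without fibroblast replicate 1 and -1.05 with arrays centred on their medians.

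Other genes were ranked by how closely their pattern over the 9 arrays followed each filament gene, as the root mean square difference after each gene was centred on its own mean, among 4187 genes (less the gene itself) with an SD of at least 0.5 over the arrays. Closest to Vim was Pdgfra, a growth factor receptor gene of mesenchymal cells, at 0.149 log2 units, followed by Fhl2 at 0.223 and Ccnd2 at 0.243. Pdgfra had group means of 10.80 (fibroblasts), 8.96 (dedifferentiated) and 7.59 (ES), which is the same order as Vim. Closest to Nes were Adamts9 (0.294), Epas1 (0.346) and Ncoa5 (0.364), and these distances were larger than those of most other members.

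The genes closest to Ina were Lefty2 (0.185), an inhibitor of Nodal signalling, Rhox9 (0.276) and Zic5 (0.300). Lmna lay closest to Agpat3 (0.0699), Bst2 (0.0883) and Armcx2 (0.0902), and Lmnb1 to Dtymk (0.0512), a thymidylate kinase gene of nucleotide supply, Snx5 (0.0583) and the centromere gene Cenpn (0.0622). Des lay closest to Myo1e (0.101), Prph to Pycard (0.0539), Nefl to Fmr1nb (0.123), Lmnb2 to Dnd1 (0.148) and Synm to Ngrn (0.306). The SD over the arrays was 0.395 for Lmnb2 and 0.232 for Synm, under the minimum set for the compared genes. Genes of such small spread could not be chosen, and the distance of Ngrn exceeded the SD of Synm itself. The pairs of Lmnb2 and Synm are therefore not read as shared patterns. With 3 groups, many genes share an order of means.

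**Figure D5:**
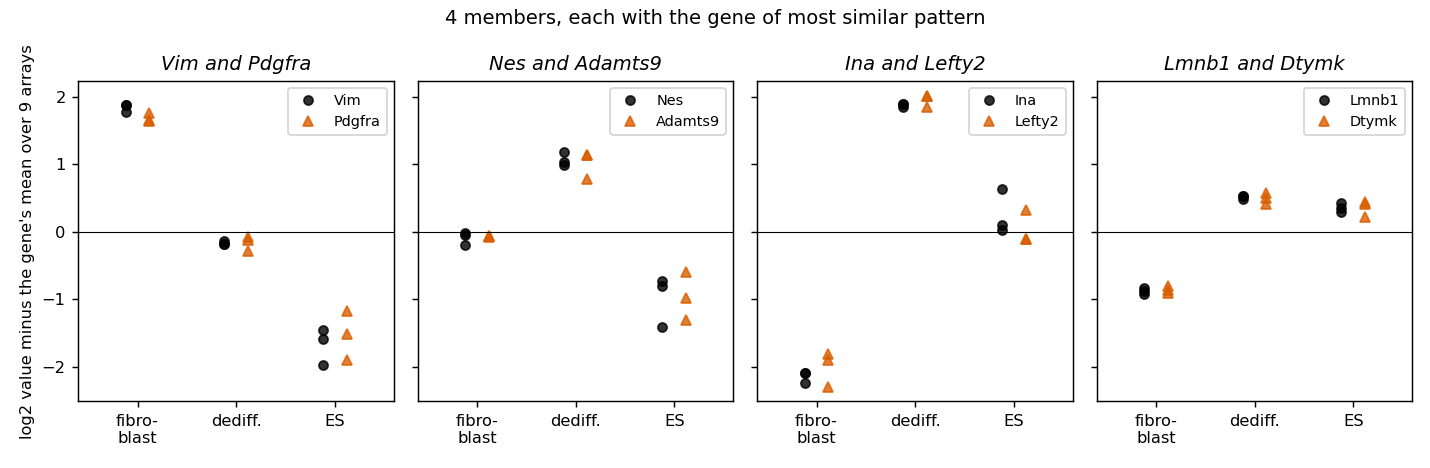
Log2 value minus the gene's own mean over 9 arrays (vertical axis) by group for Vim, Nes, Ina and Lmnb1 (circles), each beside the gene with the closest pattern (triangles), with each point 1 array. Pdgfra steps down with Vim from fibroblasts to dedifferentiated to ES cells, whereas Adamts9 peaks with Nes, and Lefty2 with Ina, in the dedifferentiated cells.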

How the data were processed

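RNA of 9 samples was read on one-colour arrays. The deposited values are log2 expression values, made by the authors with RMA in Affymetrix Expression Console 1.1, per the submitters' processing notes. RMA subtracts background, forces one value distribution on the arrays and combines the probes of a set. A shift shared by the whole transcriptome is thereby removed, and folds of dim genes come out too small. No detection call was given, and the 9 arrays limit the precision.

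The table had 35557 rows, of which the platform annotation gives 21789 a single symbol, 1621 more than one and 12147 none. Where a gene had several rows (999 genes), the row with the highest mean was used. All 9 arrays entered 1 limma 3.58.1 fit (R 4.3.3) with empirical Bayes moderation, no block, and Benjamini-Hochberg adjustment over 19938 genes. The fit was tested on simulated data. Array medians were 4.65 to 4.86, and arrays correlated at 0.988 to 0.995 within groups and 0.911 to 0.986 between groups.

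The members, gene lists and tests were chosen with earlier results of these data known. All members were named, with up to 3 called genes per direction of each partner list, or the smallest p, and the 3 genes of closest pattern. Other partner genes, single markers and neighbouring genes were named after their values were seen. Some listed genes are not reported here.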

Additional observations from a re-analysis of the deposited data

How the results depend on the processing

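The alternatives were another quantile normalization, median centring, both filters on dim genes, all rows, averaged rows of a gene, array weights, trended or robust variances, only the groups compared, the replicate block, other thresholds and leaving out each array. Of 588 differences of the 10 genes under the settings other than thresholds, 585 kept their side of the threshold and 3 passed it (Nes, ES minus fibroblast, given above). A change of direction with an adjusted p under 0.05 in either fit occurred for 0. Smaller changes of direction were not counted. Lmna between dedifferentiated and ES cells, at 0.052, was as low as -0.022 with 1 array left out. Median centring shifted the median of all genes by -0.12 and -0.119 in dedifferentiated and ES cells against fibroblasts, and directions of the 10 genes held. With no minimum size the members higher and lower were 7 and 2 (dedifferentiated against fibroblasts), 7 and 3 (ES against fibroblasts) and 4 and 1 (dedifferentiated against ES), and at 1.5-fold 7 and 2, 6 and 3, and 4 and 1. The genes added with no minimum were Lmnb2 and, in ES cells, Synm and Nes, and Nefl (higher) and Des (lower) between dedifferentiated and ES cells. Counts over all genes then moved too, from 201 higher and 109 lower to 2236 and 2003 with no minimum and 765 and 660 at 1.5-fold. Against fibroblasts they moved from 1753 higher and 2012 lower to 4977 and 4468, and 3226 and 3075, in dedifferentiated cells, and from 1764 and 2073 to 5203 and 4570, and 3283 and 3162, in ES cells. Both filters on dim genes removed Nefl and Synm, which left 5, 4 and 3 of the remaining 8 members higher.

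Same-numbered samples share only a number: their deviations correlated at -0.204 to 0.25, against -0.241 to 0.324 for other pairs. With the replicate block, the counts were 6 higher and 2 lower, 5 and 2, and 3 and 0 in the order of the comparisons, which are those without it. The within-array values without each array ranged from -2.75 to -2.58 and -2.78 to -2.70 for the lamins against fibroblasts, and -0.0049 to 0.17 between dedifferentiated and ES cells. For Nes minus Vim they were 3.10 to 3.23, 2.34 to 2.88 and 0.29 to 0.83.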

Other observations

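The 19 measured protein-coding neighbours of the 10 genes in the RefSeq gene table were read in the same fit, a step added after the data were seen. Against fibroblasts, 5 of the 19 were called in dedifferentiated cells, compared with 18.9% of all genes, and 4 in ES cells, compared with 19.2%. Pcgf6, a Polycomb gene next to Ina, rose by 2.41 and 2.28 log2 units in dedifferentiated and ES cells and differed by 0.13 between them (adjusted p = 0.51), whereas Ina itself differed by 1.63. Crabp2, a retinoic acid-binding protein gene next to Nes, rose by 1.23 in dedifferentiated cells and differed by 0.63 in ES cells. Mex3a, next to Lmna, rose by 1.36 and 1.40 while Lmna fell, Igf1r, next to Synm, was lower (-1.80 and -1.18), and Marchf3, next to Lmnb1, was lower (-1.75 and -2.07) while Lmnb1 rose. Nefm adjoins Nefl and was not called. Gadd45b, next to Lmnb2, was the 1 neighbour called between dedifferentiated and ES cells (-1.06, adjusted p = 2.2e-05), against 1.55% of all genes. Between ES cells and fibroblasts Gadd45b differed by 0.97 and was called without fibroblast replicate 2 (1.01) or ES replicate 1 (1.02), which made 5 of 19 there. Nes and Lmna, with opposite changes in dedifferentiated cells, lie on chromosome 3 with 21 protein-coding genes between them.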
